A study of Mus musculus with 8 samples.

Results

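The TNF ligand and receptor superfamilies were examined in LT-HSCs (long-term hematopoietic stem cells) that had been purified from the livers of *IκBα* WT, HET and KO embryos at E14.5. Members were all genes of the count table whose GRCm38 symbol starts with *Tnfrsf* or *Tnfsf*, together with *Tnf*, *Lta*, *Ltb*, *Ltbr*, *Fas*, *Fasl*, *Cd27*, *Cd40*, *Cd40lg*, *Cd70*, *Eda2r*, *Edar* and *Ngfr*. This gave 46 members among 55487 genes. Of these, 35 had 10 or more reads summed over the 8 samples and are called expressed, as were 20610 genes of the whole table. The 11 members below this limit were *Tnfrsf9* (6 reads), *Cd40* and *Tnfsf8* (5 reads each), *Tnfsf13* (2 reads), *Tnfsf15* and *Tnfsf18* (1 read each), and *Fasl*, *Cd70*, *Cd40lg*, *Ngfr* and *Tnfrsf8*, which had 0 reads in all 8 samples.

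Ligands of the TNF superfamily are mostly membrane-anchored trimers that cluster their receptors on a target cell. Receptors with a death domain, such as TNFR1 (*Tnfrsf1a*) and FAS, can recruit caspase-8, whereas receptors that bind TRAF adaptors, such as TNFR2 (*Tnfrsf1b*), LTβR (*Ltbr*) and CD27, signal to NF-κB, and a subset including LTβR, the BAFF receptor, RANK and Fn14 engages the non-canonical route through NIK and RelB. IκBα, encoded by *Nfkbia*, holds NF-κB dimers in the cytoplasm and is degraded when these receptors signal. In the hematopoietic system the superfamily is best known for its roles in lymphocytes.

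The samples came from matings of mice heterozygous for a targeted *Nfkbia* null allele, possibly carrying a Gfi1:tomato reporter, and comprised 3 WT, 3 HET and 2 KO samples of 500 LT-HSCs each (LSK CD48- CD150+), so that every cell of a KO embryo lacked the gene. The labels give WT1, WT2 and HET1 as male and as total RNA, and WT3, HET2, HET3, KO1 and KO2 as female and as polyA RNA. Sex and RNA type therefore coincided and cannot be told apart, and there was no male KO sample. The labels do not say which samples shared a litter, and p-values measure the spread between these samples.

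Gene counts totalled 17895973 to 21720972 per sample, at which 3 reads corresponded to 0.125 to 0.178 CPM. Levels are given as CPM (reads relative to the TMM-scaled library size). *Nfkbia* had 45.3, 67.7 and 23.4 CPM in the WT samples and 23.3, 29.0 and 14.4 CPM in the HET samples, whereas KO1 had 1 read and KO2 had 0 reads. The markers of the sorted cells differed widely between libraries. The summed level of 7 LT-HSC markers (*Kit*, *Ly6a*, *Slamf1*, *Procr*, *Mecom*, *Hlf* and *Hoxa9*, all of which reached 1 CPM) was 1136 and 1197 CPM in WT1 and WT2 but 218 CPM in WT3. It was 412 and 393 CPM in HET1 and HET2 but 191 CPM in HET3, and 977 and 705 CPM in KO1 and KO2. *Ly6a*, which encodes the SCA1 antigen of the gate, had 0 reads in HET3. The 5 hepatocyte markers summed to 1132 CPM in WT3 and 548 CPM in HET3, against 6.26 to 211 CPM in the other 6 libraries. *Kit*, also an antigen of the gate, did not share this drop, with 148 CPM in WT3 and 170 CPM in HET3 against 135 CPM in HET1 and 170 CPM in WT1. It made up most of the marker sum in WT3 and HET3. *Slamf1*, which encodes the CD150 antigen of the gate, had 19.8 and 13.0 CPM in WT3 and HET3. HET1 and HET2 were close, at 24.9 and 22.7 CPM, and the other libraries had 51.1 to 124 CPM. Apart from *Kit*, and from *Slamf1* when set against HET1 and HET2, the marker levels of WT3 and HET3 went against the label of sorted LT-HSCs. Results are given with and without these libraries.

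Ligands were represented by 10 expressed members of 17. Per kilobase of exon, the highest mean level of any member was that of *Ltb* (118 CPM per kb over 8 samples), which encodes lymphotoxin β, the membrane anchor of the heterotrimer that binds LTβR. *Ltb* (ENSMUSG00000024399, chromosome 17, 35194439 to 35196320, GRCm38) had 362, 219 and 13.3 CPM in WT1, WT2 and WT3, 95.7, 86.1 and 1.01 CPM in HET1, HET2 and HET3, and 325 and 324 CPM in KO1 and KO2. The genotypes overlapped, with WT1 above and WT2 below both KO samples. *Lta*, whose product completes that heterotrimer, had 21 reads in all and at most 0.374 CPM. *Tnf*, the founding ligand, lies beside both on chromosome 17 and ranged from 0 CPM in HET3 to 4.68 CPM in HET1.

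The promoter of *Ltb* is shown because this gene had the highest level. Those of its receptor *Ltbr* and of *Tnfrsf14*, an abundant member whose levels ran opposite to most others, are shown with it. *Tnfrsf19* and *Eda2r* were also highest in HET3, at 1.25 and 1.07 CPM. The 250 bases before the RefSeq transcription start (GRCm38.p6) are printed 5′ to 3′ on the gene's strand, and capitals mark a match to the 10-base κB consensus on either strand. The windows are chr17:35194257-35194506 (plus strand), chr6:125313886-125314135 (minus strand) and chr4:154928078-154928327 (minus strand). RefSeq starts can differ from the ends of the gene spans given elsewhere, which came from GENCODE. The *Ltb* window runs past the GENCODE start at 35194439. The *Tnfrsf14* window lies inside the GENCODE span of that gene (154921933 to 154928563).
Ltb: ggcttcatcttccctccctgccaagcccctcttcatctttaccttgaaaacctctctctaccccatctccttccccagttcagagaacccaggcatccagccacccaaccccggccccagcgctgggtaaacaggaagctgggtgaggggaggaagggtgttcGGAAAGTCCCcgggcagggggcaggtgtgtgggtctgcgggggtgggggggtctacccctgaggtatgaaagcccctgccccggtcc
Ltbr: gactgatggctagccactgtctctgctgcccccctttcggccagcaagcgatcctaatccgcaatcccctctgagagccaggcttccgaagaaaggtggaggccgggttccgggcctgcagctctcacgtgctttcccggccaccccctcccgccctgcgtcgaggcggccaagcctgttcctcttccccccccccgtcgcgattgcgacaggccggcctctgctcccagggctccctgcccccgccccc
Tnfrsf14: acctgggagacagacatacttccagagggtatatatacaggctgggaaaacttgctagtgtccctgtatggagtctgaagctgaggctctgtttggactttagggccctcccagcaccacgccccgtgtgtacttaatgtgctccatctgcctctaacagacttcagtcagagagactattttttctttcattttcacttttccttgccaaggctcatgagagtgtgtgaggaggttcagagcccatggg
The match in *Ltb*, GGAAAGTCCC, begins 87 bases upstream of the RefSeq start. Of 27 expressed members with a promoter in the table, *Ltb* was the only one with a match to the κB consensus, which 3.90% of all 32851 promoters hold. No match in such a window says only that these letters are not there.

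Of the other ligands, *Tnfsf9* (4-1BBL) had 20.8, 16.7 and 0.521 CPM in the WT samples, 2.77, 4.89 and 1.01 CPM in the HET samples and 14.3 and 9.10 CPM in the KO samples. *Tnfsf10*, which encodes the death ligand TRAIL, had 9.87, 11.8 and 1.15 CPM in WT, 2.29, 4.44 and 0.593 CPM in HET, and 9.79 and 4.87 CPM in KO samples. *Tnfsf14* (LIGHT) reached 6.80 CPM, and *Tnfsf12* (TWEAK), *Tnfsf11* (RANKL) and *Tnfsf13b* (BAFF) reached 3.22, 3.46 and 1.80 CPM. In each of these 6 genes WT1, WT2 or KO1 was the highest library and WT3 or HET3 the lowest, and WT and KO levels overlapped.

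**Figure D1:**
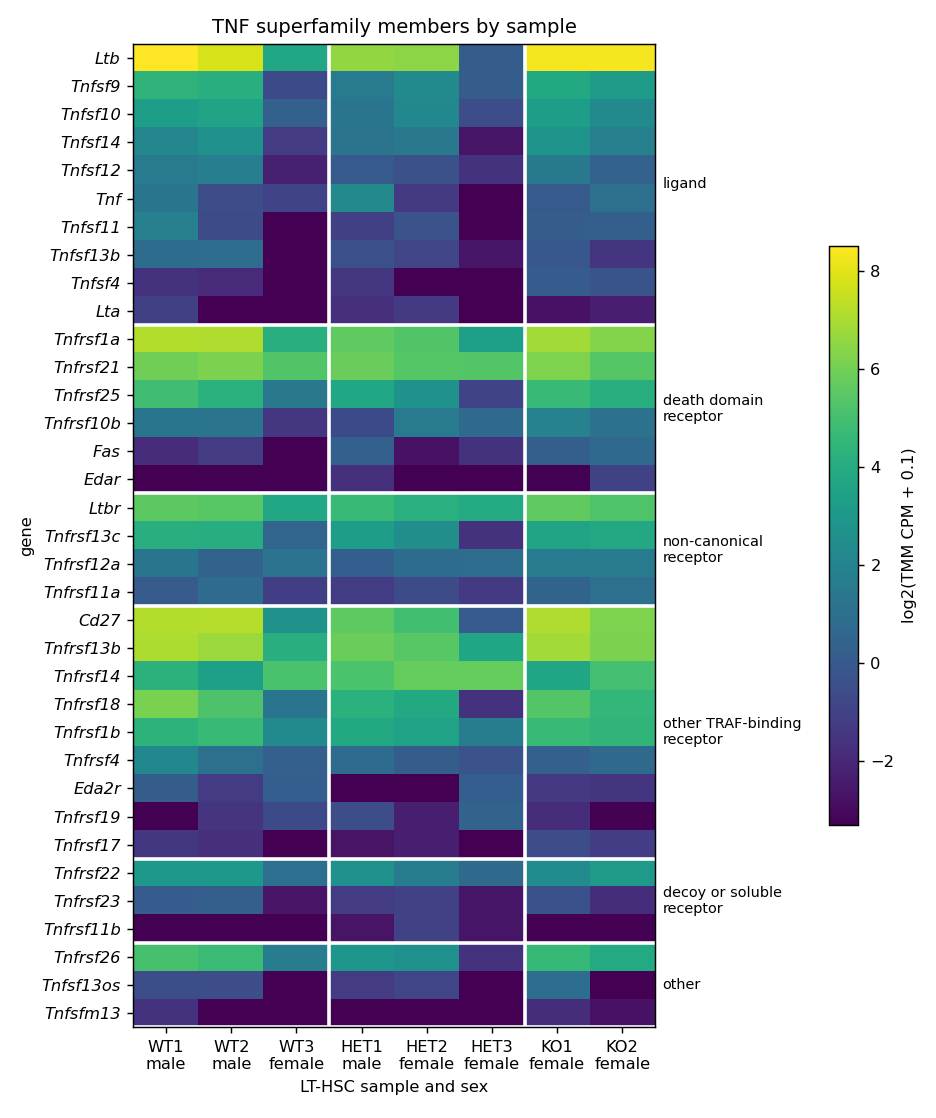
Level of the 35 expressed members in each of the 8 samples, as log2(TMM CPM + 0.1) by colour, with genes grouped by role and samples by genotype. WT1, WT2, KO1 and KO2 are bright and WT3 and HET3 dark for most genes, and *Tnfrsf14* runs the other way.

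Receptors gave 22 expressed members of 26, apart from *Tnfrsf26* and 2 transcripts of the *Tnfsf12* and *Tnfsf13* locus. Per kilobase, *Cd27* (31.0 CPM per kb), *Tnfrsf1a* (28.2), *Tnfrsf13b* (24.4), *Tnfrsf14* (21.4), *Tnfrsf18* (16.8), *Ltbr* (13.2) and *Tnfrsf21* (13.0) led. For each of these the spread between the libraries of a genotype exceeded the gap to the next in this order. *Cd27* is a TRAF-binding receptor found on lymphocytes and hematopoietic progenitors, and it had 141 and 143 CPM in WT1 and WT2, 6.41 CPM in WT3, 46.6, 30.1 and 0.949 CPM in the HET samples and 134 and 74.6 CPM in the KO samples. *Tnfrsf13b* (TACI, a receptor for BAFF and APRIL) had 131, 105 and 17.1 CPM in WT, 56.5, 42.5 and 12.6 CPM in HET, and 118 and 71.5 CPM in KO samples. *Tnfrsf18* (GITR) had 70.1, 36.2 and 2.29 CPM in WT, 18.7, 14.3 and 0.237 CPM in HET, and 40.8 and 22.8 CPM in KO samples. In all 3 genes both KO samples lay above the 3 HET samples and WT3, and WT1 was above KO2.

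For several abundant receptors the known ligand had at most 1 read in these samples. *Cd70*, the ligand of CD27, had 0 reads, *Tnfsf18*, the ligand of GITR, had 1 read, and *Tnfsf15*, the ligand of DR3 (*Tnfrsf25*), had 1 read. Conversely *Tnfrsf9*, the receptor of 4-1BBL, had 6 reads. Both sides were expressed for *Ltb* and *Ltbr*, for *Tnfsf10* and *Tnfrsf10b*, for *Tnf* with *Tnfrsf1a* and *Tnfrsf1b*, and for *Tnfsf14* with *Tnfrsf14* and *Ltbr*. The same held, among others, of *Tnfsf13b* with *Tnfrsf13b*, *Tnfrsf13c* and *Tnfrsf17*, *Tnfsf12* with *Tnfrsf12a*, *Tnfsf11* with *Tnfrsf11a*, and *Tnfsf4* with *Tnfrsf4*.

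Most members varied together across libraries, in an order in which the genotypes were mixed. In 27 of 35 expressed members the lowest library was WT3 or HET3, as it was in 37.4% of all tested genes. Where libraries tied at 0 reads, the first in the order WT1 to KO2 was taken as lowest. Both figures can therefore be too low, so the gap between them is uncertain. The summed level of the 35 members was 1137 and 911 CPM in WT1 and WT2, 165 CPM in WT3, 454, 378 and 147 CPM in HET1, HET2 and HET3, and 1010 and 793 CPM in KO1 and KO2. The same libraries were high and low as for the LT-HSC markers, and neither sum separated KO from WT. Of the lists of other cell types, the 6 endothelial markers and the 6 B lymphoid markers had the same 4 libraries highest and the same pair lowest. The endothelial markers summed to 157, 148 and 13.1 CPM in WT, 57.9, 41.7 and 2.19 CPM in HET, and 137 and 96.7 CPM in KO samples. This sum was mostly *Emcn* and *Tie1*, which stem cells also express, with *Kdr* at 0 reads in HET3 and *Lyve1* in WT3. The 5 megakaryocyte markers were also lowest in WT3 (61.5 CPM) and HET3 (23.3 CPM), and ranged from 107 CPM in KO2 to 1258 CPM in WT2 in the others. The 2 markers of progenitors outside the gate were lowest in WT3 (48.0 CPM) and HET3 (52.0 CPM). Some lists ran otherwise. The 6 erythroid markers summed to 949, 473 and 1177 CPM in WT, 7976, 2577 and 1332 CPM in HET, and 499 and 1647 CPM in KO samples. WT1, WT2 and KO1 were lowest for them, as for *Tnfrsf14*. The neutrophil and macrophage markers were highest in WT3, at 811 and 279 CPM. Set against the LT-HSC marker sum, *Tnfrsf1a* stood at 11.8% and 11.3% in the KO samples, within its range of 5.35% to 12.2% in WT and HET samples. *Ltb* stood at 33.3% and 45.9% in KO1 and KO2 and between 0.529% in HET3 and 31.9% in WT1 in the others. In bulk RNA, fewer cells of a type and less RNA per cell cannot be told apart, and the part of cell make-up in the results that follow was not tested beyond the values given.

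**Figure D2:**
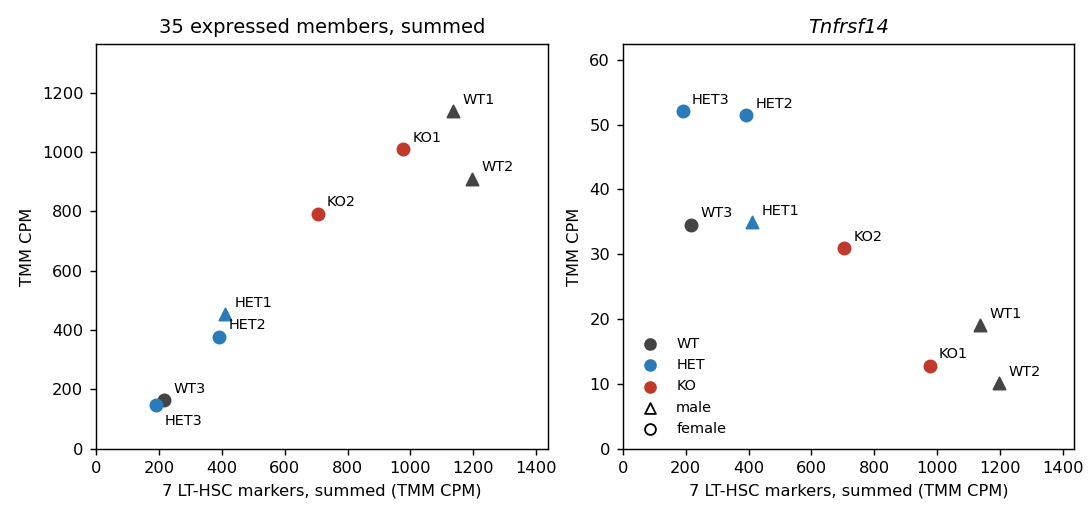
Summed level of the 35 expressed members (left) and level of *Tnfrsf14* (right) against the summed level of 7 LT-HSC markers, all in TMM CPM, with 1 point per sample, colour for genotype and shape for sex. The member sum runs from 147 CPM in HET3 to 1137 CPM in WT1 along with the markers, and *Tnfrsf14* from 52.0 CPM in HET3 down to 10.1 CPM in WT2.

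To ask whether loss of IκBα changed the superfamily, both KO samples were compared with the 6 WT/HET samples with sex as a covariate, and a gene was called at an adjusted p under 0.05 with a log2 fold change over 1. By edgeR's quasi-likelihood test 0 of 35 members were called, as was 0.00% of 20610 genes. Their adjusted p lay between 0.148 and 0.904. At an unadjusted p under 0.05, 16 of 35 members passed, all higher in KO, where 25.2% of all genes passed and 15.7% passed in the upward direction. The median log2 fold change of the 35 expressed members was 2.11 against 0.13 for all genes, and 30 of 35 members were above 0, as were 55.2% of all genes. The 30 include *Edar* and *Tnfsfm13*, which reached 10 summed reads only through their KO reads. With *Tnfrsf11b*, which had 0 reads in both KO samples, at its bound the median stayed 2.11. By DESeq2 with shrunken fold changes 10 of 35 members were called, all higher in KO, where 7.10% of all genes were called and 6.50% were called higher, and 6 members had no adjusted p.

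These values depended on the sex covariate, which sets both KO samples against WT3, HET2 and HET3. Without it, 1 of 35 members passed an unadjusted p under 0.05 (2.00% of all genes) and the median fell to 0.61. Among the female samples alone, both KO samples lay above all 3 others in 24 of 35 members, as they did in 27.1% of all genes. *Tnfsfm13*, 1 of the 24, had 4 and 1 reads in KO1 and KO2 and counted as expressed only through them. In 1 member, *Tnfrsf14*, both KO samples lay below all 3 others. The smallest two-sided exact permutation p of this design is 0.2. Against all 6 WT/HET samples both KO samples lay above in 3 of 35 members (3.05% of all genes) and below in 0 (1.79%). Without WT3 and HET3 the only female reference sample left was HET2, so the fit with sex set both KO samples against that 1 library: 7 of 35 members passed an unadjusted p under 0.05 (5.09% of all genes), 0 were called (0.00%), and the median was 1.13. Without the sex covariate as well, so that WT1, WT2, HET1 and HET2 formed the reference, 0 members passed (1.60% of all genes) and the median was 0.10. The LT-HSC markers moved with the members: all 7 had higher fitted levels in KO in the same fit, by 0.51 to 2.86 on the log2 scale (adjusted p = 0.152 to 0.193, edgeR). With their summed level as a further covariate, 5 of 35 members passed an unadjusted p under 0.05 (3.84% of all genes). These included *Edar*, whose KO reads all came from KO2. With this covariate 0 members were called and the median was 0.28. Without HET2, which left WT3 and HET3 as the female reference, 10 members were called by edgeR (3.54% of all genes), all higher in KO.

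**Figure D3:**
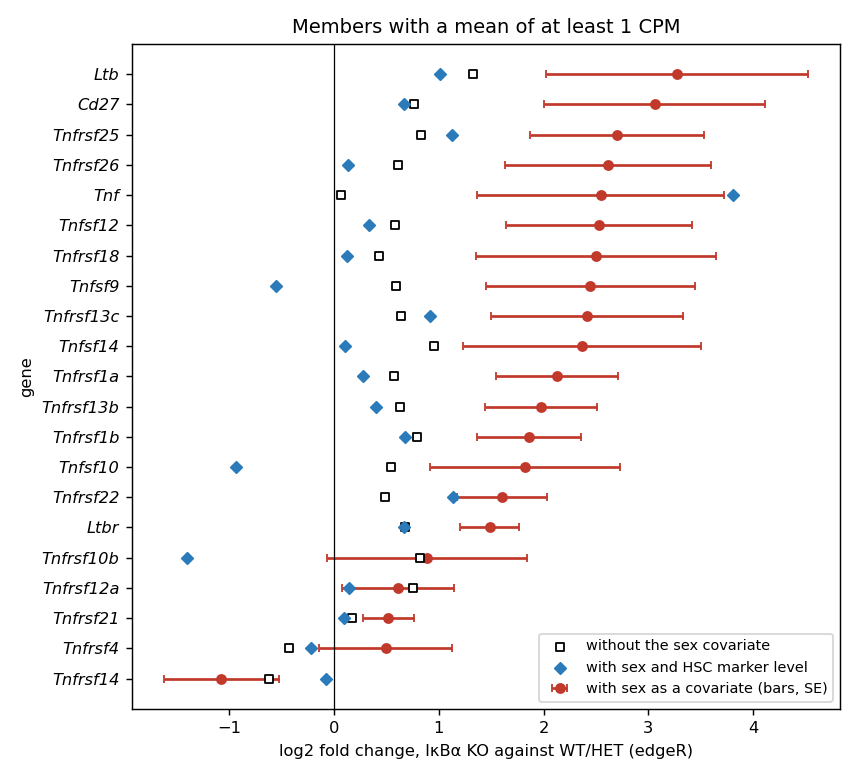
Log2 fold change of KO against WT/HET by edgeR for members with a mean of at least 1 CPM, with sex as a covariate (circles, bars show the standard error), without it (squares), and with sex and the LT-HSC marker level (diamonds). *Ltb* stands at 3.27, 1.32 and 1.01 in the 3 fits, and most members lie closer to 0 in the squares and diamonds than in the circles.

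Among the ligands, 4 of 10 passed an unadjusted p under 0.05, all higher in KO (15.7% of all genes). The median log2 fold change of the 10 was 2.41 (-0.22 with the LT-HSC marker level). *Ltb* had a log2 fold change of 3.27 (SE 1.25, adjusted p = 0.167, edgeR), which was 1.32 without the sex covariate, 1.88 without WT3 and HET3, and 0.77 without them and sex. *Tnfsf9* had 2.44 (SE 0.997, adjusted p = 0.180, edgeR). *Tnf* had 2.54 (SE 1.18, adjusted p = 0.215, edgeR) and 0.07 without the sex covariate, with 0.930 and 1.97 CPM in the KO samples inside the WT/HET range. *Tnfsf10* had 1.82 (SE 0.908, adjusted p = 0.239, edgeR) and turned to -0.93 with the LT-HSC marker level.

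Of the 6 expressed death domain receptors, 3 passed an unadjusted p under 0.05, all higher in KO (15.7% of all genes). The median log2 fold change of the 6 was 2.42 (0.70 with the LT-HSC marker level). *Tnfrsf1a* (chromosome 6, 125349362 to 125362484), the main signaling receptor for TNF, had 139, 136 and 17.3 CPM in WT, 49.1, 39.0 and 10.2 CPM in HET, and 115 and 79.4 CPM in KO samples. WT1 and WT2 were thus the highest libraries, and KO exceeded WT3 and every HET sample. Its log2 fold change was 2.13 (SE 0.584, adjusted p = 0.148, edgeR), 1.29 without WT3 and HET3, 0.10 without them and sex, and 0.28 with the LT-HSC marker level. *Tnfrsf25* (DR3) had 29.0, 18.8 and 2.60 CPM in WT, 13.3, 6.61 and 0.415 CPM in HET, and 25.0 and 17.0 CPM in KO samples, a log2 fold change of 2.70 (SE 0.827, adjusted p = 0.152, edgeR). *Tnfrsf21* (DR6) varied least of these, between 39.1 CPM in WT3 and 74.0 CPM in KO1, with 42.2 CPM in KO2 (log2 fold change 0.52, SE 0.244, adjusted p = 0.219, edgeR). *Tnfrsf10b*, the death receptor for TRAIL in the mouse, had 2.34, 2.21 and 0.260 CPM in WT, 0.532, 2.88 and 1.54 CPM in HET, and 3.72 and 2.07 CPM in KO samples, and the groups overlapped (log2 fold change 0.89, SE 0.956, adjusted p = 0.578, edgeR).

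Of the 4 expressed receptors of the non-canonical route, 3 passed an unadjusted p under 0.05, all higher in KO (15.7% of all genes). The median log2 fold change of the 4 was 1.73 (0.47 with the LT-HSC marker level). *Ltbr* (chromosome 6, 125306571 to 125313885) had 46.4, 43.2 and 13.3 CPM in WT, 26.1, 18.2 and 14.9 CPM in HET, and 48.4 and 38.4 CPM in KO samples. KO1 was the highest library, KO2 lay under WT1 and WT2, and both exceeded the HET samples. Among members with a mean of at least 1 CPM it had the lowest unadjusted p, with a log2 fold change of 1.49 (SE 0.282, adjusted p = 0.148, edgeR), 1.22 without WT3 and HET3, 0.37 without them and sex, and 0.66 with the LT-HSC marker level. *Tnfrsf13c* (BAFF receptor) had 16.9, 16.2 and 1.35 CPM in WT, 9.57, 5.65 and 0.237 CPM in HET, and 11.9 and 14.0 CPM in KO samples (log2 fold change 2.42, SE 0.915, adjusted p = 0.166, edgeR). Both KO samples stood between WT2 and HET1, within the WT range.

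Of the 9 expressed TRAF-binding receptors outside that route, 4 passed an unadjusted p under 0.05, all higher in KO (15.7% of all genes). The median log2 fold change of the 9 was 1.86 (0.40 with the LT-HSC marker level). *Tnfrsf1b* (TNFR2) had 20.1, 25.7 and 4.74 CPM in WT, 14.3, 11.0 and 3.14 CPM in HET, and 24.6 and 21.1 CPM in KO samples. Only WT2 exceeded both KO samples, and the log2 fold change was 1.86 (SE 0.496, adjusted p = 0.148, edgeR). *Cd27*, *Tnfrsf13b* and *Tnfrsf18* had log2 fold changes of 3.06, 1.97 and 2.50, and of 0.67, 0.40 and 0.12 with the LT-HSC marker level. *Tnfrsf14* encodes HVEM, a receptor for LIGHT that also binds BTLA. It had 19.0, 10.1 and 34.6 CPM in WT, 34.9, 51.5 and 52.0 CPM in HET, and 12.8 and 30.9 CPM in KO samples. It was the only expressed member with both KO samples below the 3 female WT/HET samples, which 21.4% of all genes showed, and its log2 fold change was -1.07 (SE 0.546, adjusted p = 0.246, edgeR), or -0.08 with the LT-HSC marker level.

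The decoy receptors bind ligand without passing on a death signal. *Tnfrsf22*, a TRAIL decoy, had 7.81, 7.86 and 1.93 CPM in WT, 6.28, 3.03 and 1.60 CPM in HET, and 5.14 and 8.16 CPM in KO samples, with the groups overlapping and a log2 fold change of 1.60 (SE 0.428, adjusted p = 0.148, edgeR). Its neighbour *Tnfrsf23* had at most 1.09 CPM (WT2) and 0.685 and 0.197 CPM in the KO samples (log2 fold change 1.31, SE 1.12, adjusted p = 0.477, edgeR). *Tnfrsf11b*, which encodes osteoprotegerin, had 10 reads, all in HET samples. *Tnfrsf26*, the other gene of this chromosome 7 cluster, had 33.2, 26.6 and 3.18 CPM in WT, 7.23, 6.10 and 0.237 CPM in HET, and 24.3 and 14.8 CPM in KO samples. *Tnfrsf22*, *Tnfrsf23* and *Tnfrsf26* lie across a gene on the opposite strand, *E230032D23Rik*. The same holds of *Cd27* (*Vamp1*), *Tnfrsf13b* (*Gm12269*), *Tnfrsf18* (*Gm16008*), *Tnfsf9* (*Gm11110*), *Tnfsf13b* (*Gm44789*), *Tnfrsf19* (*Gm41168*) and *Tnfsf12* (*Tnfsf13os*), and the counts of all of these are uncertain where strand was not used in counting. *Tnfsf12* and *Tnfsfm13* overlap on the same strand, so that strand would not tell them apart.

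The 3 members with both KO samples above all 6 WT/HET samples had low levels. *Tnfsf4*, which encodes OX40L, had 0.979 and 0.738 CPM (20 and 15 reads) in the KO samples, 0.234, 0.167 and 0.266 CPM in WT1, WT2 and HET1, and 0 reads in WT3, HET2 and HET3. Against the floor of 3 reads over the 3 female WT/HET libraries its KO mean was at least 16.0-fold higher. The two-sided exact permutation p over all 8 samples was 0.0714, the smallest that 2 against 6 samples can give. Choosing members by this separation fixes that p, so it adds nothing to the levels. Its fitted log2 fold change of 7.12 (adjusted p = 0.148, edgeR) depends on the prior count. *Tnfrsf17* (BCMA) had 12 and 7 reads in KO1 and KO2 and 0 to 6 reads in the others. *Tnfrsf12a*, which encodes Fn14, had 2.89 and 2.90 CPM in KO, 1.91 ± 0.572 CPM in WT (SD, n = 3) and 1.52 ± 0.396 CPM in HET samples (SD, n = 3), with an adjusted p of 0.491 (edgeR). In *Fas*, the gene of the FAS death receptor, KO1 and KO2 (1.08 and 1.52 CPM) were above 5 of the 6 others, while HET1 had 1.12 CPM and the rest at most 0.334 CPM. *Tnfsf4*, *Fas*, *Ltbr*, *Tnf* and *Edar* were the members that passed an unadjusted p under 0.05 with the LT-HSC marker level in the fit. Of the 12 reads of *Edar*, 8 were in KO2, 0 in KO1 and 4 in HET1. Its higher fitted level in KO thus rests on KO2 alone, and only through the KO2 reads did it count as expressed.

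**Figure D4:**
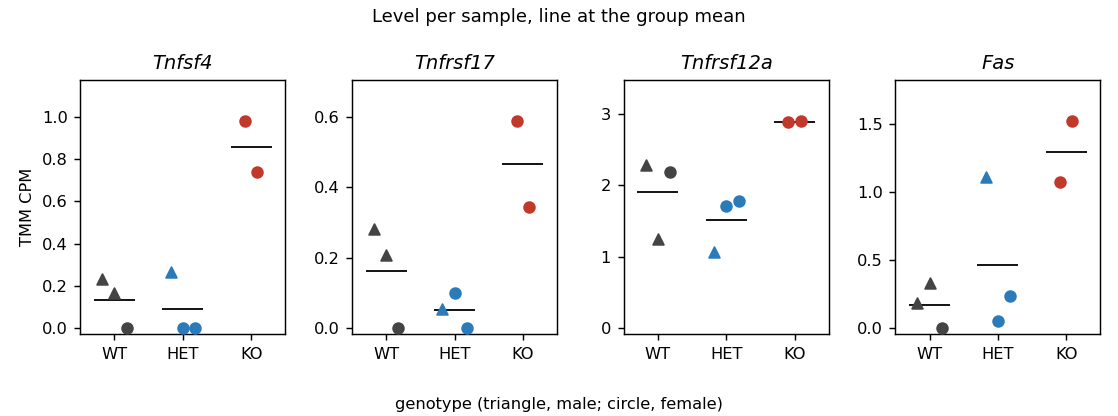
TMM CPM of *Tnfsf4*, *Tnfrsf17*, *Tnfrsf12a* and *Fas* in each sample by genotype, with a line at each group mean, triangles for male and circles for female samples. Both KO samples are the highest for the first 3 genes, and for *Fas* HET1 (1.12 CPM) lies between KO1 and KO2.

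Downstream of the receptors, 38 genes of the signaling route (TRAF and RIPK adaptors, caspase-8 and its regulators, ubiquitin enzymes, IκB kinases and NF-κB subunits) were all tested, *Nfkbia* among them. At an unadjusted p under 0.05, 13 were higher and 4 lower in KO (25.2% of all genes passed), 0 were called by edgeR, and the median log2 fold change was 0.32 (0.10 with the LT-HSC marker level) against 0.13 for all genes. By DESeq2 with shrunken fold changes *Relb*, *Nfkbie*, *Mlkl*, *Traf1* and *Map3k14* were called higher and *Nfkbia* lower, 6 of 38 genes, where 7.10% of all genes were called. *Relb*, the NF-κB subunit of the non-canonical route, had 13.9, 10.5 and 2.03 CPM in WT, 4.15, 4.24 and 1.54 CPM in HET, and 18.2 and 14.7 CPM in KO samples. Both KO samples thus exceeded all others, as they also did for *Tab1* and *Traf3* and in 3.05% of all genes. The log2 fold change of *Relb* was 2.65, which was 1.43 without the sex covariate and 0.90 with the LT-HSC marker level. *Casp8*, the initiator caspase of the death receptors, had 307, 224 and 98.3 CPM in WT, 181, 106 and 79.7 CPM in HET, and 230 and 167 CPM in KO samples. *Nfkbie*, which encodes IκBε, had 33.6 and 24.4 CPM in the KO samples and 29.4 and 29.2 CPM in WT1 and WT2. *Mlkl*, the effector of necroptosis, had a log2 fold change of 1.64 (SE 0.407, adjusted p = 0.148, edgeR). *Otulin*, a deubiquitinase of linear chains, had -0.52 (SE 0.150, adjusted p = 0.150, edgeR). In these last 4 genes KO and WT levels overlapped. Of 3 superfamily genes that the symbols do not capture, *Relt* passed an unadjusted p under 0.05 (log2 fold change 0.66) and *Eda* and *Edaradd* did not.

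Loss of 1 allele was examined between the 3 HET and 3 WT samples with sex as a covariate. By edgeR 0 of 35 members were called (0.00% of 20585 genes) and 1 passed an unadjusted p under 0.05 (3.63% of all genes); by DESeq2 with shrunken fold changes 0 were called (0.0777%). The median log2 fold change of the members was -0.06 against 0.00 for all genes. The 1 member was *Tnfrsf14*, higher in HET (46.2 ± 9.72 CPM, SD, n = 3) than in WT (21.2 ± 12.4 CPM, SD, n = 3), with HET1 at 34.9 CPM next to WT3 at 34.6 CPM. Its log2 fold change was 0.92 (SE 0.302, unadjusted p = 0.0207, adjusted p = 0.931, edgeR). The erythroid marker sum was likewise higher in every HET sample than in every WT sample, and its part in this difference was not tested. *Tnfrsf4* (OX40) had 4.45, 1.96 and 1.15 CPM in WT and 1.65, 1.01 and 0.712 CPM in HET samples, which overlapped (log2 fold change -0.69). For *Tnfrsf12a*, *Tnfrsf26*, *Ltbr* and *Tnfrsf1a* the log2 fold change was -0.53, -1.04, -0.24 and -0.50. With the replicate number as a block beside sex, which left 1 residual degree of freedom and took the HET effect from pairs 1 and 3, 8 members passed an unadjusted p under 0.05 (5.21% of all genes), 7 of them lower and *Tnfrsf14* higher in HET, and 0 were called.

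The comparison changed when the low library of each group was left out. With HET1 and HET2 against WT1 and WT2 and no sex covariate, 11 of 35 members were called by edgeR (11.0% of all genes), 17 passed an unadjusted p under 0.05 (33.0%), and the median log2 fold change was -1.26 against -0.09 for all genes. Lower in HET were *Ltb*, *Ltbr*, *Tnfrsf1a*, *Cd27*, *Tnfrsf13b*, *Tnfrsf13c*, *Tnfrsf18*, *Tnfrsf26*, *Tnfsf9* and *Tnfsf10*, with log2 fold changes from -1.02 (*Ltbr*) to -2.29 (*Tnfsf9*). *Tnfrsf14* was higher, by 1.57 (adjusted p = 0.0142, edgeR). HET2 is the only female among these 4 libraries. With sex in the fit it therefore carried no weight, and the 9 members then called (9.60% of all genes) rest on HET1 alone against WT1 and WT2, with 1 residual degree of freedom and HET1 assumed to vary as the WT samples do. The LT-HSC marker sum differed the same way between these libraries, with 1136 and 1197 CPM in WT1 and WT2 against 412 and 393 CPM in HET1 and HET2.

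Male and female WT/HET samples were compared because sex enters the KO fit. By edgeR 0 of 35 members were called (0.0146% of 20585 genes), 10 were higher and 1 was lower in males at an unadjusted p under 0.05 (22.7% of all genes), and by DESeq2 with shrunken fold changes 5 were called (5.69%). The median log2 fold change was 2.06, against 0.16 for all genes. In 17 of 35 members the 3 male samples lay above the 3 female samples, as in 21.1% of all genes, and the smallest two-sided exact permutation p of 3 against 3 is 0.1. *Ltbr* had the lowest unadjusted p (log2 fold change 1.20, SE 0.315, adjusted p = 0.176, edgeR), with 46.4, 43.2 and 26.1 CPM in males and 13.3, 18.2 and 14.9 CPM in females. *Tnfrsf22*, *Tnfrsf21*, *Tnfrsf13b* and *Tnfrsf1a* were also higher in males, with log2 fold changes of 1.73, 0.59, 1.91 and 1.99, and *Tnfrsf14* was lower (-0.91). Without WT3 and HET3 the comparison reduced to HET1 against HET2, 1 library each, with a median of 0.33. Without HET2, 17 members were called (14.6%). Without HET1 the contrast rested on WT1 and WT2 against WT3 alone, and the log2 fold change of *Ltbr* was 1.69. With the LT-HSC marker level as a covariate, 0 passed an unadjusted p under 0.05 (4.91% of all genes).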

How the data were processed

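Bulk RNA-seq of sorted fetal liver LT-HSCs was used as a table of raw counts that the authors deposited: per the labels and the study's methods, reads were trimmed with Trim Galore 0.6.6, aligned with STAR 2.7.8 to GRCm38, and counted per gene of the Ensembl annotation, with the strand setting not given in the sources used here. A second deposited table of transformed, sex-corrected values was not used. Symbols and coordinates came from the GENCODE M21 annotation of GRCm38, which gave a symbol to 20588 of 20610 genes with 10 or more summed reads. Promoter sequences came from RefSeq (GRCm38.p6).

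Members and lists were chosen with earlier results of these data known. Genotype came from the sample titles. The main test was edgeR 4.0.16's quasi-likelihood test (R 4.3.3, limma 3.58.1, TMM, Benjamini-Hochberg adjustment over all genes with 10 or more summed reads), with sex as a covariate. Alternatives were DESeq2 1.42.0 with and without apeglm 1.24.0 (the study used DESeq2 1.38.3), other normalizations, filters, covariates and references, the replicate block and each sample left out. Leaving out WT3 and HET3 and the LT-HSC marker covariate were chosen after seeing the data. A marker of the LT-HSC list is not reported here and enters no sum or covariate. The fits were tested on simulated data. Deviations from the group means correlated at 0.293, 0.198 and 0.590 for same-numbered WT and HET samples, which comes from the data and not from the labels. WT and HET samples of other numbers ran from -0.493 (WT2 and HET3) to 0.403 (WT2 and HET1), so these values do not set the same-numbered samples apart. KO2 stood at -0.346 with WT2 and -0.124 with HET2. No pair of samples within a genotype agreed within sampling noise (chi-square per gene 18.9 to 261). Members whose values are given per sample were the 8 with the highest mean CPM, in each comparison the 6 with the lowest unadjusted p at a mean of at least 1 CPM, those with both KO samples beyond all others, *Tnfrsf13c*, *Tnfrsf1a* and *Ltbr*, and 3 ligand and receptor sets; of the signaling list, up to 6. *Tnfsf9*, *Fas*, *Tnfsf12* and *Tnfsf14* were added after their values were seen. The authors had discarded a further KO sample for its quality. The read floor given with the levels covers counting error only.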

Additional observations from a re-analysis of the deposited data

How the results depend on the processing

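The count of members called depended on the tool, the filter and single libraries. For KO against WT/HET it was 0 in the main fit, 10 by DESeq2 with and without shrinkage (7.10% and 8.85% of all genes), 11 with WT alone as the reference (3.22%; the only female reference was then WT3), 8 with no filter beyond 1 read (3.51%), and 0 to 10 with each sample left out (10 without HET2, 3.54%). For HET against WT it was 0, 9 without WT3 and HET3 (9.60%; HET1 alone against WT1 and WT2), 11 without them and the sex covariate (11.0%), and 0 to 1 with each sample left out (*Cd27* without HET2, 0.657%). Without HET1 or without WT3, 1 sex held a single genotype and gave the HET effect no weight. For male against female samples it was 0, 7 and 5 by DESeq2 without and with shrinkage (8.93% and 5.69%), 11 with no filter beyond 1 read (7.30%), and 0 to 17 with each sample left out (17 without HET2, 14.6%). Members with both KO samples beyond all others numbered 3 (3.05% of all genes lay above and 1.79% below). With each sample left out they numbered 3 to 8, for which the share of all genes was not counted. Fewer samples make this separation easier to reach, so the rise is not a result about the members. Library size alone as the normalization moved the median of all genes for KO from 0.13 to 0.41 on the log2 scale and that of the members from 2.11 to 2.34. KO samples shared only a number with the others. With the replicate number as a block 0 members were called, 2 passed an unadjusted p under 0.05 (2.86%), and the KO median was 1.26.

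Of the members named for KO, the log2 fold change turned sign with the LT-HSC marker level for *Tnfrsf10b* (-1.40), *Tnfrsf23* (-1.22) and *Tnfsf10* (-0.93), without the sex covariate for *Tnfrsf23* (-0.14), with the replicate block for *Tnfrsf23* (-0.0141), without WT3 and HET3 for *Tnfrsf10b* (-0.0210), and without WT3, HET3 and the sex covariate for *Tnf* (-0.43), *Tnfrsf23* (-0.66) and *Tnfrsf18* (-0.13). For HET against WT it turned with the LT-HSC marker level for *Ltbr* (0.0487) and *Tnfrsf1a* (0.107), and without HET1 for *Tnfrsf26* (0.00640), *Ltbr* (0.31) and *Tnfrsf1a* (0.51), whose values with each sample left out ran from -2.48 to 0.00640, from -0.78 to 0.31 and from -1.48 to 0.51. The cause was not tested. Of 429 values of named members for KO under an alternative, 380 kept direction and side of the threshold and 40 passed it. A count of 0 reads allowed up to 0.125 to 0.178 CPM (3 reads, counting error only), and members near that level rest on few reads.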

Other observations

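The HET effect was lower in males than in females in 30 of 35 members, as in 53.5% of all genes, and at an unadjusted p under 0.05 in 3 members, where 10.4% of all genes passed. *Tnfsf9* had 2.77 CPM in HET1 against 20.8 and 16.7 CPM in the male WT samples, but 4.89 and 1.01 CPM in HET2 and HET3 against 0.521 CPM in WT3 (interaction on the log2 scale -5.25, SE 1.50, unadjusted p = 0.0150, adjusted p = 0.452, edgeR). *Tnfrsf10b* had 0.532 CPM in HET1 against 2.34 and 2.21 CPM, but 2.88 and 1.54 CPM against 0.260 CPM (interaction -5.14, adjusted p = 0.452, edgeR). *Ltbr* had 26.1 CPM in HET1 against 46.4 and 43.2 CPM, but 18.2 and 14.9 CPM against 13.3 CPM (interaction -1.09, adjusted p = 0.461, edgeR). None of the 35 members passed the adjusted threshold for this interaction, and 0 of all genes did; 3 members and 2149 genes passed an unadjusted p under 0.05. The male HET group was HET1 alone and the female WT group WT3 alone.

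Members lie in clusters in the genome. *Cd27* (chromosome 6, 125232622 to 125237010, minus strand), *Ltbr* and *Tnfrsf1a* are neighbours, and in all 3 WT1, WT2, KO1 and KO2 were the 4 highest libraries. This was not particular to the neighbours, as the same 4 were highest for *Ltb* on chromosome 17 and *Tnfrsf13b* on chromosome 11. *Ltb*, *Tnf* and *Lta* are neighbours on chromosome 17, and there *Ltb* had 29975 reads over the 8 samples, *Tnf* 224 and *Lta* 21.

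Of the lymphoid marker lists, the B lymphoid one, like the endothelial one, had WT1, WT2, KO1 and KO2 highest and WT3 and HET3 lowest, as the members did. The T and NK list did not, with KO2 lowest at 6.84 CPM. The 6 B lymphoid markers, of which *Rag1* had 0 reads in every library, summed to 12.2 to 99.3 CPM in WT, 2.19 to 36.7 CPM in HET and 52.7 to 82.4 CPM in KO samples, mostly through *Cd79b*. The 7 T and NK markers, with *Cd3e* at 0 reads in every library, summed to 11.0 to 22.6 CPM in WT, 7.30 to 11.0 CPM in HET and 6.84 to 25.9 CPM in KO samples. Their part in the levels of the members was not tested.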
